A study of Homo sapiens with 15 samples.

Results

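The genes described here are 10 genes of the unfolded protein response (UPR) and of protein folding in the endoplasmic reticulum (ER), namely HSPA5, HSP90B1, CALR, SDF2L1, DNAJB9, PDIA4, HERPUD1, XBP1, ATF6 and ERN1. They were taken by exact match of the gene name and make up 10 of the 60107 genes listed in each library. RNA-seq was performed on MIA PaCa-2, an established human pancreatic carcinoma line, in 5 groups of 3 libraries that share this line and differ in the agent. The control group (Ctrl) received vehicle, and the others received Lys05, BAQ12, BAQ13 or BAQ12O, each at 5 µM, with RNA taken 24 h after the start of exposure. Lys05 is a dimeric chloroquine that accumulates in lysosomes and blocks their function. BAQ12 and BAQ13 are the lysosome-directed compounds made for the study, whose RNA-seq text describes BAQ13 as nanoparticles. The study also reports stronger growth inhibition of this line by BAQ12 and BAQ13 than by Lys05, so equal doses need not be equally toxic. BAQ12O is known here only from the labels (the design text calls the agent 12O). No label says whether the 3 libraries of a group came from separate cultures, so the p-values below measure the spread between libraries, which may be technical.

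The libraries held 1586566 to 2500551 reads on genes, and all 10 genes passed the filter on low counts, together with 10485 others. Values are normalised counts, that is, reads scaled by one factor for each library. BAQ12 replicate 3 and BAQ13 replicate 1 stood apart from the rest. Across 9791 genes, BAQ12 replicate 3 differed from the mean of its group's other libraries by a median of 0.384 on the log2 scale and BAQ13 replicate 1 by 0.228. BAQ12 replicates 1 and 2 (0.254 and 0.215) and BAQ13 replicate 3 (0.203), whose comparison mean includes one of those libraries, were close to the latter value, and the 3 vehicle libraries gave 0.136 to 0.145. Measured against counting error, BAQ13 replicate 1 differed from replicates 2 and 3 with a chi-square per degree of freedom of 3.40 and 6.21. Between replicates 2 and 3 of BAQ13 it was 1.77. The deviations of BAQ12 replicate 3 and BAQ13 replicate 1 from their own group means ran together. Their correlation across genes was 0.617, against -0.548 to 0.477 in the other 89 pairs of libraries from different groups. Mitochondrial genes held 20.6% of the reads of BAQ12 replicate 3, against 15.8% and 16.4% in the other BAQ12 libraries, and their part in the results was not tested. As for the labelled epithelial identity, the keratins KRT8, KRT18 and KRT19 were present in every library (175 to 970 normalised counts), whereas EPCAM had at most 1 read and CDH1 at most 5. The leukocyte, endothelial and acinar markers PTPRC, PECAM1, PRSS1, CPA1 and AMY2A had between 0 and 6 reads. Of the mesenchymal genes, VIM had 9198 to 10780 normalised counts, COL1A1 at most 2 reads and COL3A1 15 to 54 reads.

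HSPA5 (BiP) is the main chaperone of the ER lumen and keeps the stress sensors IRE1 (encoded by ERN1), ATF6 and PERK inactive. When unfolded proteins accumulate, IRE1 splices XBP1 mRNA, ATF6 is cleaved in the Golgi, and both resulting transcription factors activate chaperone and degradation genes through ER stress response elements. PERK, in contrast, slows translation and favours synthesis of ATF4, which activates DDIT3 (CHOP) and TRIB3. Secretory cells of the pancreas, such as acinar cells, are known for a heavy secretory load and for their dependence on this pathway. In this carcinoma line the acinar markers PRSS1, CPA1 and AMY2A had 0 reads, and its dependence on the pathway was not tested.

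The promoters of 6 of the 10 genes hold a perfect copy of an ER stress response element within the 250 bases upstream of their RefSeq start, and these copies are shown because the elements link the chaperone genes to ATF6 and XBP1. The sequences were read from RefSeq promoter windows of 300 bases (GRCh38.p14), in which all 10 genes matched by symbol to 12 windows. Both strands were searched. The element ERSE (CCAAT, any 9 bases, CCACG) was found in 27 of 35116 windows (0.0769%), including those of HSPA5, HSP90B1, XBP1 and CALR, and ERSE-II (ATTGG, any 1 base, CCACG) was found in 19 (0.0541%), including those of HERPUD1 and SDF2L1. No ERSE copy overlapped an ERSE-II copy in these genes. TGACGTGG (UPRE), bound by XBP1 and ATF6, occurred in 0.729% of all windows and TGATGCAAT (CARE), bound by ATF4 with C/EBP partners, in 0.236% of all windows, and neither was in a window of the 10 genes. Each stretch is written 5′ to 3′ in the direction of the gene, with 5 bases on either side of the element. Capitals mark the element, which reads in reverse complement in the second copy of HSP90B1 and in CALR and SDF2L1. The stretches lie at chr9:125241386-125241414 (HSPA5, minus strand), chr12:103930211-103930239 and chr12:103930316-103930344 (HSP90B1, plus), chr19:12938379-12938407 (CALR, plus), chr22:28800598-28800626 (XBP1, minus), chr16:56932020-56932040 (HERPUD1, plus) and chr22:21642109-21642129 (SDF2L1, plus). Both HSP90B1 copies are upstream of the RefSeq start but inside the GENCODE bounds of the gene, which begin at chr12:103930107.
HSPA5: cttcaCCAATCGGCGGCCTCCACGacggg
HSP90B1, distal copy: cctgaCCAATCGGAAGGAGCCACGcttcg
HSP90B1, proximal copy: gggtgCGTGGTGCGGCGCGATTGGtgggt
CALR: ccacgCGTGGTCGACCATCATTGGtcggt
XBP1: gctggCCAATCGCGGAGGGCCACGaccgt
HERPUD1: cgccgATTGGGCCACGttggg
SDF2L1: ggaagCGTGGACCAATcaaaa

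**Figure D1:**
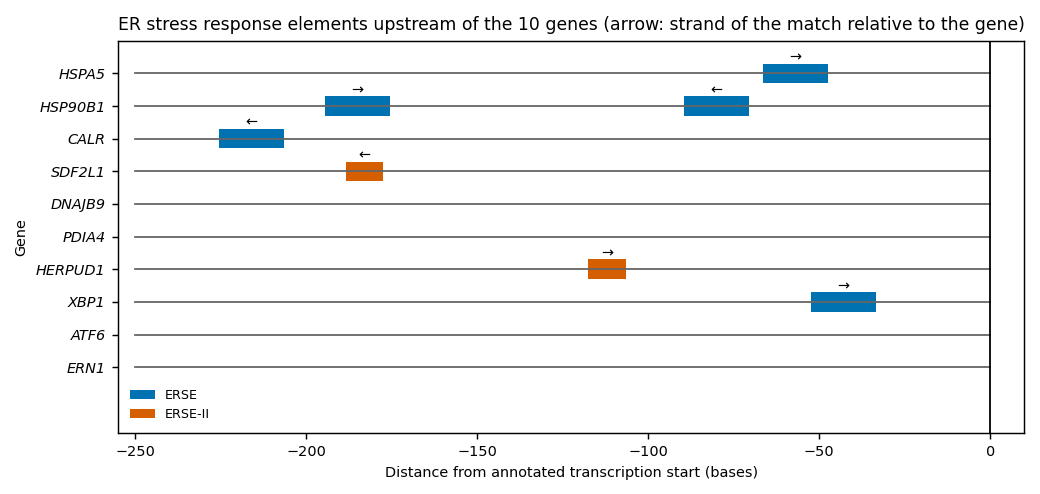
Position of each ERSE (blue) and ERSE-II (orange) copy in the 250 bases upstream of the RefSeq start (x axis, bases) of the 10 genes (rows), with arrows for the strand relative to the gene. The copies are centred 43 to 216 bases upstream, HSP90B1 has 2 of them, and DNAJB9, PDIA4, ATF6 and ERN1 have none.

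The question for these genes was whether exposure to the lysosome-directed compounds was accompanied by a change in ER chaperone and UPR transcripts. None of the 10 genes differed from vehicle at an adjusted p under 0.05 with any of the 4 compounds by limma, and edgeR and DESeq2 on the recovered reads also called 0 of 10 in each comparison. Over all 10495 genes tested, the share called was 0.238% with Lys05, 0.981% with BAQ12, 5.77% with BAQ13 and 1.48% with BAQ12O, so a count of 0 among 10 genes lay close to the background. At an unadjusted p under 0.05 there was 1 gene with Lys05 (HSP90B1), 3 with BAQ12 (HSPA5, DNAJB9 and SDF2L1), 1 with BAQ13 (PDIA4) and 0 with BAQ12O, against 4.98%, 11.8%, 19.4% and 12.8% of all genes. The median log2 fold change of the 10 genes was -0.00, -0.08, -0.10 and -0.10 in the same order, beside 0.00, -0.00, -0.00 and -0.00 over all genes. A test over all 5 groups (limma F test) likewise called 0 of 10, where 3.03% of all genes were called.

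**Figure D2:**
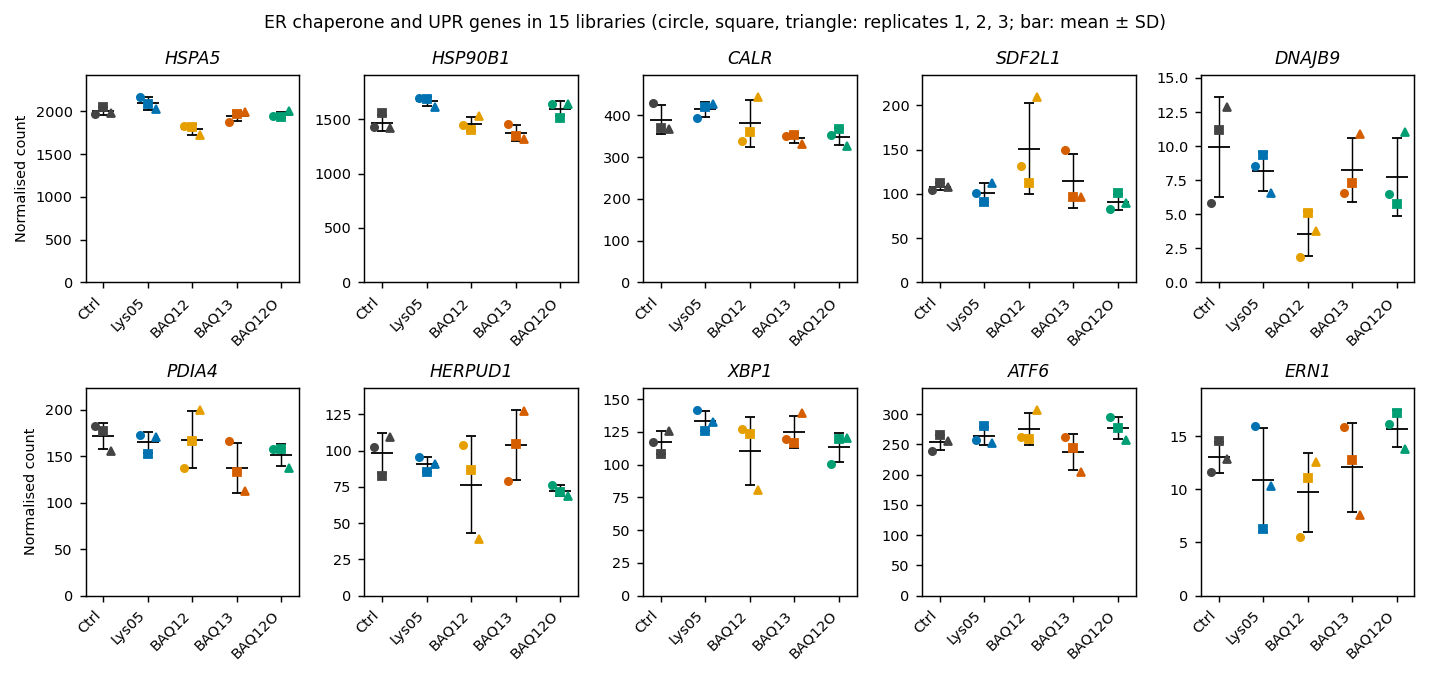
Normalised count (y axis, from 0) of each of the 10 genes in the 15 libraries by group (x axis), with circles, squares and triangles for replicates 1, 2 and 3 and bars for the mean ± SD (n = 3). The groups lie close together for HSPA5 and HSP90B1, whose highest library is 1.26 and 1.28 times the lowest, and BAQ12 replicate 3 (yellow triangle) holds the lowest or highest value of 7 of the 10 genes.

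The 95% intervals show how large a change these libraries leave possible. Compared with vehicle, the whole interval lay within a 2-fold change in either direction for 8 of 10 genes with Lys05, 7 with BAQ12, 9 with BAQ13 and 8 with BAQ12O, beside 86.6%, 81.3%, 79.4% and 82.5% of all genes tested. Within 1.5-fold lay 7, 6, 6 and 6 of 10 genes, beside 52.1%, 44.2%, 40.8% and 45.2% of all genes. The genes outside the 2-fold range were DNAJB9 in all 4 comparisons, ERN1 in all but BAQ13, and HERPUD1 with BAQ12. DNAJB9 and ERN1 rested on 2 to 14 and 6 to 18 reads per library, so a 2-fold change of these transcripts was not reliably detectable at this depth. Leaving out those genes, the fold changes of the other 8 against vehicle spanned 0.728 to 1.34.

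Among the chaperones, HSPA5 (ENSG00000044574; chr9:125234853-125241330, minus strand) had normalised counts of 1965, 2056 and 1986 in the vehicle libraries and 2171, 2092 and 2023 with Lys05. With BAQ12 the libraries had 1833, 1823 and 1718, with BAQ13 1877, 1964 and 1994, and with BAQ12O 1947, 1937 and 1999. All BAQ12 libraries lay below all vehicle libraries, while those of the other compounds overlapped with vehicle. The difference between BAQ12 and vehicle was -0.16 on the log2 scale (SE 0.06, 95% interval -0.29 to -0.03, adjusted p = 0.33), or 0.895-fold, and that of BAQ13 was -0.04 (interval -0.17 to 0.09). Without BAQ12 replicate 3 the BAQ12 difference was -0.13 (adjusted p = 0.52).

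HSP90B1 (GRP94; ENSG00000166598; chr12:103930107-103953645, plus strand), the ER member of the HSP90 family, had 1431, 1554 and 1418 normalised counts in the vehicle libraries and 1695, 1682 and 1617 with Lys05. The BAQ12 libraries had 1445, 1403 and 1527, the BAQ13 libraries 1459, 1344 and 1323, and the BAQ12O libraries 1640, 1515 and 1642. Every Lys05 library was above every vehicle library, and the BAQ12O libraries overlapped with both. The log2 difference between Lys05 and vehicle was 0.18 (SE 0.07, interval 0.04 to 0.33, adjusted p = 0.83). When the fit held the 6 libraries of this pair alone, the same difference had an adjusted p of 0.028 (115 of all genes called). The antisense neighbour C12orf73 had 10 to 31 reads and the pseudogenes HSP90B2P and HSP90B3P at most 4 and 1, so few reads could have been exchanged with them.

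CALR (calreticulin; ENSG00000179218; chr19:12938578-12944489, plus strand), the lectin chaperone of glycoproteins, had 429, 371 and 368 normalised counts with vehicle, 394, 421 and 428 with Lys05, and 338, 360 and 445 with BAQ12. With BAQ13 the libraries had 351, 354 and 331, and with BAQ12O 352, 367 and 327. The BAQ13 and BAQ12O libraries all lay below the vehicle libraries, although the lowest vehicle library (368) and the highest BAQ12O library (367) were nearly equal. The log2 differences from vehicle were -0.17 (SE 0.10, adjusted p = 0.39) with BAQ13 and -0.16 (SE 0.10, adjusted p = 0.56) with BAQ12O, and their intervals reached no further than -0.38 and -0.37.

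SDF2L1 (ENSG00000128228; chr22:21642261-21644298, plus strand), a partner of HSPA5 and its co-chaperones, varied more between libraries. Its normalised counts were 105, 113 and 107 with vehicle, 101, 90.6 and 112 with Lys05, and 83.0, 101 and 89.6 with BAQ12O. The BAQ12 libraries had 131, 112 and 210 and the BAQ13 libraries 149, 96.6 and 96.4. The high values of BAQ12 and BAQ13 were those of the 2 libraries that stood apart, at 1.72 and 1.55 times the mean of the other libraries of their group. The log2 difference between BAQ12 and vehicle was 0.43 (SE 0.20, interval 0.01 to 0.84, adjusted p = 0.42), and 0.16 (adjusted p = 0.84) without BAQ12 replicate 3. The BAQ12O difference was -0.25 (SE 0.20, adjusted p = 0.65), with all 3 libraries below vehicle.

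DNAJB9 (ERdj4; ENSG00000128590; chr7:108569568-108574850, plus strand), a co-chaperone that directs HSPA5 to IRE1 and to degradation substrates, had 7, 10 and 14 reads in the vehicle libraries and 2, 6 and 3 with BAQ12. The other groups had 8, 9 and 7 (Lys05), 7, 8 and 13 (BAQ13) and 6, 6 and 8 reads (BAQ12O). In normalised counts the BAQ12 libraries had 1.83, 5.10 and 3.77, all below the lowest vehicle library (5.81), and 2 of them were at or under the floor of 3 reads. The log2 difference of -1.27 (SE 0.39, interval -2.08 to -0.45, adjusted p = 0.18) was the largest of any of the 10 genes against vehicle and did not pass the test. It was -1.33 (adjusted p = 0.21) without BAQ12 replicate 3. DNAJB9 overlaps THAP5 (48 to 94 reads) and PNPLA8 (28 to 65 reads) on the opposite strand, and the strand setting of the counting is not stated, so reads of these genes may be mixed with its own.

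PDIA4 (ERp72; ENSG00000155660; chr7:149003062-149028641, minus strand), a protein disulphide isomerase, had 183, 178 and 156 normalised counts with vehicle, 173, 152 and 171 with Lys05, and 157, 158 and 138 with BAQ12O. The BAQ12 libraries had 138, 167 and 200 and the BAQ13 libraries 166, 133 and 112. BAQ13 replicates 2 and 3 were below all vehicle libraries, and BAQ13 replicate 1 was within their range. The log2 difference between BAQ13 and vehicle was -0.34 (SE 0.15, interval -0.65 to -0.03, adjusted p = 0.21), or 0.790-fold. Without both libraries that stood apart, an alternative chosen after seeing the data, it was -0.49 with an adjusted p of 0.0023 (12% of all genes called).

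HERPUD1 (ENSG00000051108; chr16:56932048-56944863, plus strand), which assembles the machinery of ER-associated degradation at the membrane, had 102, 82.6 and 109 normalised counts with vehicle and 95.8, 85.4 and 90.5 with Lys05. The values were 104, 86.7 and 38.9 with BAQ12, 79.3, 105 and 127 with BAQ13, and 76.5, 71.5 and 68.9 with BAQ12O. BAQ12 replicate 3 had 0.409 times the mean of the other BAQ12 libraries, and the BAQ12O libraries were all below vehicle. The log2 difference from vehicle was -0.46 (SE 0.26, interval -1.0 to 0.08, adjusted p = 0.48) with BAQ12 and -0.04 (adjusted p = 0.98) without replicate 3 of that group. With BAQ12O it was -0.42 (SE 0.26, interval -0.97 to 0.12, adjusted p = 0.52). The BAQ12O difference had an adjusted p of 0.036 when the fit held the 6 libraries of this pair alone (871 of all genes called) and of 0.023 without both libraries that stood apart (9.28% called).

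XBP1 (ENSG00000100219; chr22:28794555-28800597, minus strand), the transcription factor downstream of IRE1, had 117, 108 and 126 normalised counts with vehicle, 142, 126 and 133 with Lys05, and 100, 119 and 120 with BAQ12O. The BAQ12 libraries had 127, 123 and 80.4 and the BAQ13 libraries 119, 117 and 139. All Lys05 libraries lay just above the highest vehicle library, with a log2 difference of 0.19 (SE 0.15, interval -0.13 to 0.51, adjusted p = 1). The log2 difference was -0.11 (SE 0.15) with BAQ12 and 0.09 (SE 0.15) with BAQ13. BAQ12 replicate 3 (80.4) had 0.641 times the mean of the other BAQ12 libraries, and without it the BAQ12 difference changed sign, to 0.10 (adjusted p = 0.91). Gene totals do not separate spliced from unspliced XBP1 mRNA, so the activity of IRE1 was not measured.

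Of the sensors, ATF6 (ENSG00000118217; chr1:161766294-161964070, plus strand) had 239, 265 and 255 normalised counts with vehicle, 258, 280 and 252 with Lys05, and 294, 276 and 258 with BAQ12O. It had 262, 258 and 306 with BAQ12 and 262, 244 and 204 with BAQ13. Every group overlapped with vehicle, and the log2 differences lay between -0.10 and 0.13 (SE 0.11). ERN1 (ENSG00000178607; chr17:64039142-64130819, minus strand) had 11.6, 14.5 and 12.9 normalised counts with vehicle, 16.0, 6.25 and 10.3 with Lys05, and 5.50, 11.1 and 12.6 with BAQ12. The BAQ13 libraries had 15.9, 12.8 and 7.54 and the BAQ12O libraries 16.2, 17.2 and 13.8. These groups also overlapped, with log2 differences from -0.45 to 0.26 (SE 0.35).

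Counted by groups that did not overlap, Lys05 was above vehicle in HSP90B1 and XBP1 (2 of 10 genes, beside 15.6% of all genes in either direction). BAQ12 was below vehicle in HSPA5 and DNAJB9 (2 of 10, beside 15.4%), and BAQ13 was below it in CALR (1 of 10, beside 28.9%). BAQ12O was below vehicle in HERPUD1, SDF2L1 and CALR (3 of 10, beside 25.8%). These comparisons share the vehicle libraries.

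**Figure D3:**
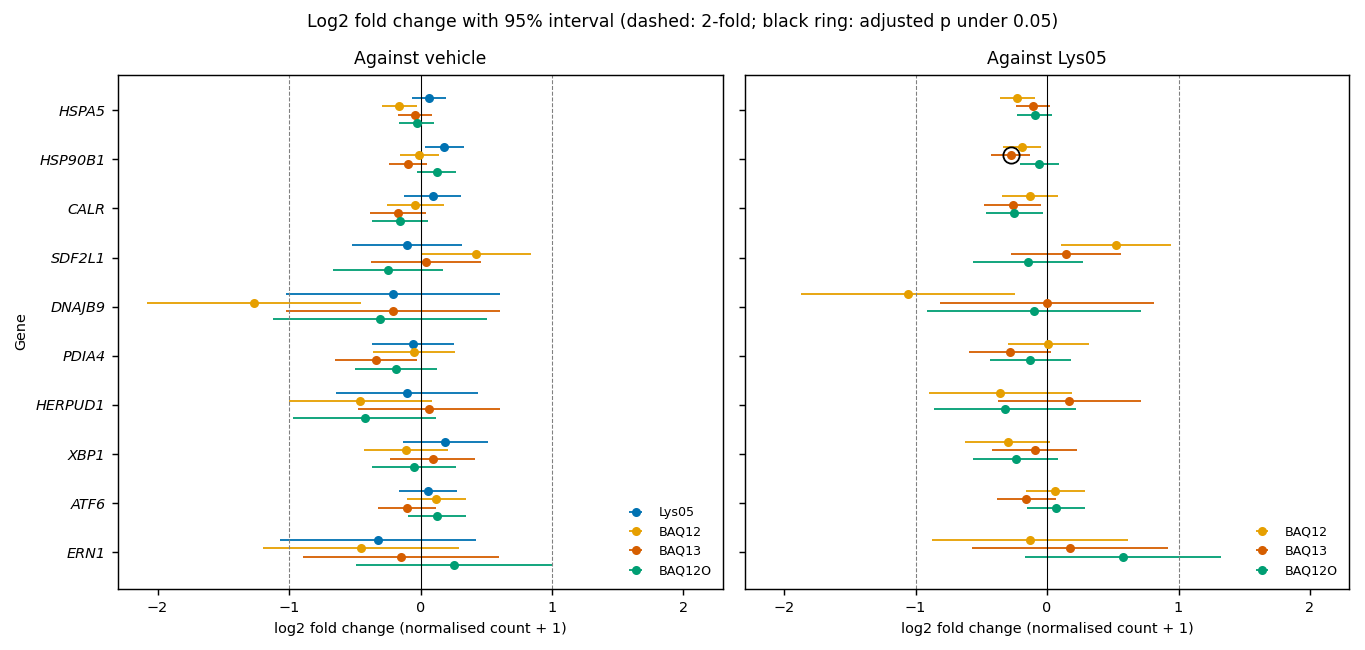
Log2 fold change (x axis, on normalised count + 1) with its 95% interval for the 10 genes (rows), against vehicle (left, 4 compounds) and against Lys05 (right, 3 compounds), with dashed lines at a 2-fold change. The ringed point, HSP90B1 in BAQ13 against Lys05 (-0.28), is the single difference with an adjusted p under 0.05, and the widest intervals are those of DNAJB9 and ERN1.

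The compounds were next compared directly at the same dose and time, in 6 pairs. Of the 60 differences, 1 passed the test. HSP90B1 was lower with BAQ13 than with Lys05, by -0.28 on the log2 scale (SE 0.07, interval -0.42 to -0.13, limma adjusted p = 0.041), or 0.826-fold, with the 3 BAQ13 libraries (1323 to 1459) below the 3 Lys05 libraries (1617 to 1695). In this pair 1 of 10 genes was called beside 2.66% of all genes tested (0.781% lower, 1.88% higher), and 3 of 10 (HSPA5, HSP90B1 and CALR) did not overlap beside 23.8%. The HSP90B1 call was close to the threshold. It held in 15 of 28 alternatives and was lost in 13, among them 10 of the 15 in which 1 library was left out, with adjusted p-values from 0.00016 to 0.16 over all alternatives. The libraries that ended the call were the 3 of vehicle, the 3 of Lys05, replicates 2 and 3 of BAQ13 and replicates 1 and 2 of BAQ12O, and the log2 difference in these fits stayed between -0.30 and -0.25.

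BAQ12 replicate 3 also entered the spread that all groups share. Without it, CALR was lower with BAQ13 than with Lys05 as well (log2 -0.26, adjusted p = 0.042; 0.22 with all libraries). HSP90B1 was then higher with BAQ12O than with BAQ13 (log2 0.22, interval 0.09 to 0.34, adjusted p = 0.041; 0.19 with all libraries). The share of all genes called rose at the same time, to 7.76% for BAQ13 against Lys05 and to 3.69% for BAQ12O against BAQ13.

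For the other pairs no difference passed, and the intervals give what remains possible. Between BAQ12 and Lys05 (0.162% of all genes called), HSPA5 had a log2 difference of -0.23 (interval -0.36 to -0.10, adjusted p = 0.29), HSP90B1 of -0.19 (interval -0.34 to -0.04), SDF2L1 of 0.53 (interval 0.11 to 0.94) and DNAJB9 of -1.06 (interval -1.87 to -0.24, adjusted p = 0.59), and 4 of 10 genes did not overlap, beside 11% of all genes. Between BAQ12O and Lys05 (0.248% called), CALR had -0.25 (interval -0.46 to -0.03, adjusted p = 0.57), and HSPA5, XBP1, HERPUD1 and CALR did not overlap, beside 18.4% of all genes. BAQ13 and BAQ12 (0.562% called) differed most in DNAJB9, by 1.06 (interval 0.24 to 1.87, adjusted p = 0.40), beside 0.12 in HSPA5 (interval -0.01 to 0.25) and -0.29 in PDIA4 (interval -0.60 to 0.02). For the names BAQ12O and BAQ12 (0.229% called), HSPA5 differed by 0.13 (interval 0.00 to 0.26, adjusted p = 0.59) and SDF2L1 by -0.67 (interval -1.09 to -0.26, adjusted p = 0.33), which was -0.41 without BAQ12 replicate 3. DNAJB9 in that pair had 0.96 (interval 0.14 to 1.77, adjusted p = 0.51). BAQ12O and BAQ13 (1.39% called) were nearest in HSPA5 (0.01, interval -0.12 to 0.14) and CALR (0.01, interval -0.20 to 0.23), while ATF6 had 0.23 (interval 0.00 to 0.45, adjusted p = 0.43). HERPUD1 in that pair had a difference of -0.49 (interval -1.03 to 0.05, adjusted p = 0.50).

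Ordered by mean, HSPA5, HSP90B1, XBP1 and CALR were highest with Lys05. HSPA5, XBP1, DNAJB9 and ERN1 were lowest with BAQ12, while HSP90B1, PDIA4, CALR and ATF6 were lowest with BAQ13 and HERPUD1 and SDF2L1 with BAQ12O. The place of XBP1 rested on BAQ12 replicate 3, since the mean of the other BAQ12 libraries (125.4) lay above that of vehicle (117.04). The ratio of the highest to the lowest group mean was 1.17 for HSPA5, 1.21 for HSP90B1 and 1.20 for CALR, and reached 2.79 for DNAJB9. In none of the 10 genes did neighbouring groups in this order differ at an adjusted p under 0.05.

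The wider pathway was examined with 130 other genes in 6 lists by function. Of these genes, 118 passed the filter. The lists were chosen with earlier results of these data known. Their counts, set beside the shares of all genes here and below, are therefore no independent test. With Lys05, BAQ12 and BAQ12O, 0 genes of any list were called by limma, edgeR or DESeq2, and 3, 17 and 10 had an unadjusted limma p under 0.05, beside 4.98%, 11.8% and 12.8% of all genes. With BAQ13, 32 had an unadjusted p under 0.05 (19.4% of all genes), and 7 were called by limma (9 by edgeR, with MANF and SESN2 added, and 6 by DESeq2). Of these 7, 4 are in the list of disulphide formation and 3 in the list of the PERK and ATF4 arm, where 5.77% of all genes were called. Of the 19 other ER chaperones tested, limma and DESeq2 called 0 and edgeR called 1 (MANF, lower), and 12 had lower means with BAQ13 (median log2 -0.09). With all libraries, limma called none of the 25 ER-associated degradation genes (median -0.08), the 27 genes of translocation and glycosylation (median -0.16, 22 with lower means) or the 16 sensors and regulators (median 0.12).

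These counts depended on BAQ12 replicate 3, which is in neither group of the BAQ13 comparison. Without it the log2 differences between BAQ13 and vehicle were the same, but 28 list genes were called (19 lower and 9 higher), beside 13.7% of all genes. They were 4 of the ER chaperones (SERPINH1, FKBP10, MANF and SDF2, all lower), 6 of disulphide formation, 2 of ER-associated degradation (UBXN6 higher, FAM8A1 lower), 9 of translocation and glycosylation, all lower (adjusted p = 0.0035 for GANAB and 0.0044 for SPCS3, the lowest), and 7 of the PERK and ATF4 arm, all higher. No sensor or regulator was called. BAQ12O then had 5 calls against vehicle, namely DDIT3, CEBPB and PPP1R15A (higher) and SLC7A11 and SPCS3 (lower), beside 4.99% of all genes, and BAQ12 had 1, PPP1R15A (higher, adjusted p = 0.037), beside 1.31%. Lys05 still had 0. Leaving out other single libraries gave 3 to 8 calls with BAQ13, with the lowest count without vehicle replicate 3 or BAQ13 replicate 1 and 4 calls without vehicle replicate 1 or 2. Over all genes, BAQ13 fits without 1 library called from 320 (vehicle replicate 3 left out) to 1441 (BAQ12 replicate 3 left out). In fits of only the 6 libraries compared, there were 17 calls with BAQ13 and 10 with BAQ12O. These fits called 947 and 871 of all 10495 genes.

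**Figure D4:**
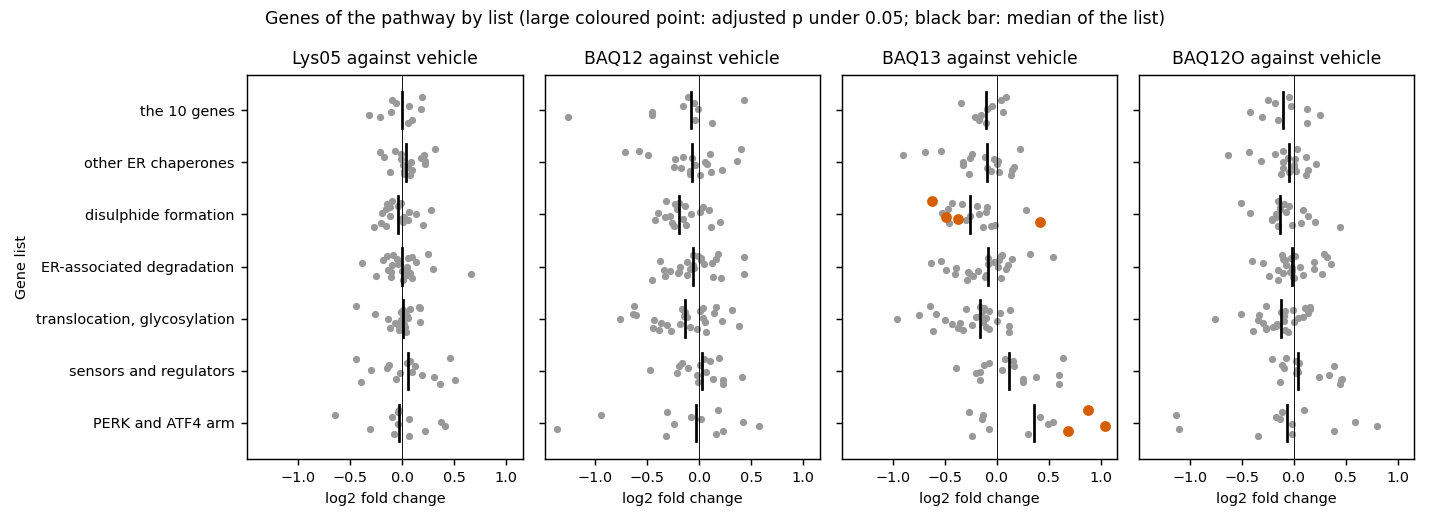
Log2 fold change against vehicle (x axis) of the 10 genes and of the genes of 6 pathway lists (rows) for each compound (panels), with black bars for the median of a list and large orange points for an adjusted p under 0.05. With all 15 libraries in the fit, the 7 orange points are in the BAQ13 panel, 4 in disulphide formation and 3 in the PERK and ATF4 arm.

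In the PERK and ATF4 list, limma called 3 of 12 genes tested as raised by BAQ13 and 0 as lowered (list median 0.36). Over all genes tested, 3.58% were called as raised and 2.19% as lowered. Called or not, the BAQ13 mean exceeded the vehicle mean in 7 of the 12 genes and fell short of it in 5 (lowest log2 -0.26). Without BAQ12 replicate 3 the calls came to 7 of 12, with ATF4 (log2 0.30, adjusted p = 0.0095), PPP1R15A, SESN2 and DDIT4 added. DDIT3, the transcription factor CHOP that promotes death after prolonged ER stress, had 34.9, 34.6 and 37.6 normalised counts with vehicle and 104.5, 60.2 and 65.4 with BAQ13. All BAQ13 libraries were above all vehicle libraries, the highest being BAQ13 replicate 1. The increase was 1.04 on the log2 scale (SE 0.21, adjusted p = 0.0053), or 2.05-fold, and 0.80 (adjusted p = 0.035) without that library. CEBPB, a partner of CHOP, rose from 152, 144 and 141 to 222, 250 and 232 normalised counts (log2 0.68, SE 0.10, adjusted p = 0.00032). TRIB3, a target of ATF4 and CHOP, rose from 23.2, 16.7 and 22.9 to 36.4, 31.9 and 51.1 (log2 0.88, SE 0.24, adjusted p = 0.035). Several genes of this list, CEBPB and TRIB3 among them, also respond to amino acid shortage and other stresses, and which signal acted was not tested. The other listed genes (ATF3, NUPR1, VLDLR and STC2) did not pass the filter on low counts.

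With the other compounds, DDIT3 had 47.9, 45.8 and 49.5 normalised counts with Lys05, 45.9, 45.1 and 74.1 with BAQ12 and 60.4, 57.2 and 71.7 with BAQ12O. All of these were above the vehicle libraries, but the differences did not pass the test (log2 0.41, 0.57 and 0.80, adjusted p = 1, 0.29 and 0.072). The BAQ12O difference passed without BAQ12 replicate 3 (adjusted p = 0.0051), and between BAQ12O and BAQ13 the direct difference in DDIT3 was -0.24 (interval -0.68 to 0.20, adjusted p = 0.75). Directly compared, CEBPB was higher with BAQ13 than with Lys05 (log2 0.47, SE 0.10, adjusted p = 0.016). DDIT3 (0.63, adjusted p = 0.14) and TRIB3 (0.90, adjusted p = 0.050) were not called in that pair. Of the 12 PERK and ATF4 genes, 2, 6, 6 and 6 had an unadjusted limma p under 0.05 with Lys05, BAQ12, BAQ12O and BAQ13. The shares of all genes were 4.98%, 11.8%, 12.8% and 19.4%. Directions were mixed, with lower means than vehicle in 6 genes with BAQ12 and 8 with BAQ12O. Log2 differences ran from -1.37 to 0.57 with BAQ12 and from -1.13 to 0.80 with BAQ12O.

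In the list of disulphide formation, 3 of 19 genes fell with BAQ13 and 1 rose, and 17 had lower means than with vehicle (list median -0.26), beside 2.19% of all genes that fell, 3.58% that rose and 5300 of 10495 with lower means. Without BAQ12 replicate 3, TMX1 (adjusted p = 0.0077) and PRDX4 (adjusted p = 0.028) were also called lower. PDIA3 (ERp57), the isomerase that works with calreticulin on glycoproteins, had 817, 793 and 754 normalised counts with vehicle and 522, 612 and 560 with BAQ13, a log2 change of -0.48 (SE 0.09, adjusted p = 0.0041). P4HB (PDI) had 194, 170 and 189 against 142, 136 and 148 (log2 -0.37, SE 0.10, adjusted p = 0.032). TXNDC12 (ERp18), a small oxidoreductase of the ER, had 71.4, 79.3 and 81.7 against 42.0, 49.2 and 60.3 (log2 -0.62, SE 0.15, adjusted p = 0.021). The BAQ13 libraries of these 3 genes lay below all vehicle libraries. ERP29, a PDI-like protein without the redox-active site, went the other way, from 408, 425 and 399 to 615, 521 and 514 (log2 0.42, SE 0.10, adjusted p = 0.019). PDIA3 was also lower with BAQ13 than with Lys05 (log2 -0.50, adjusted p = 0.0047), and ERP29 was higher (0.41, adjusted p = 0.037).

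**Figure D5:**
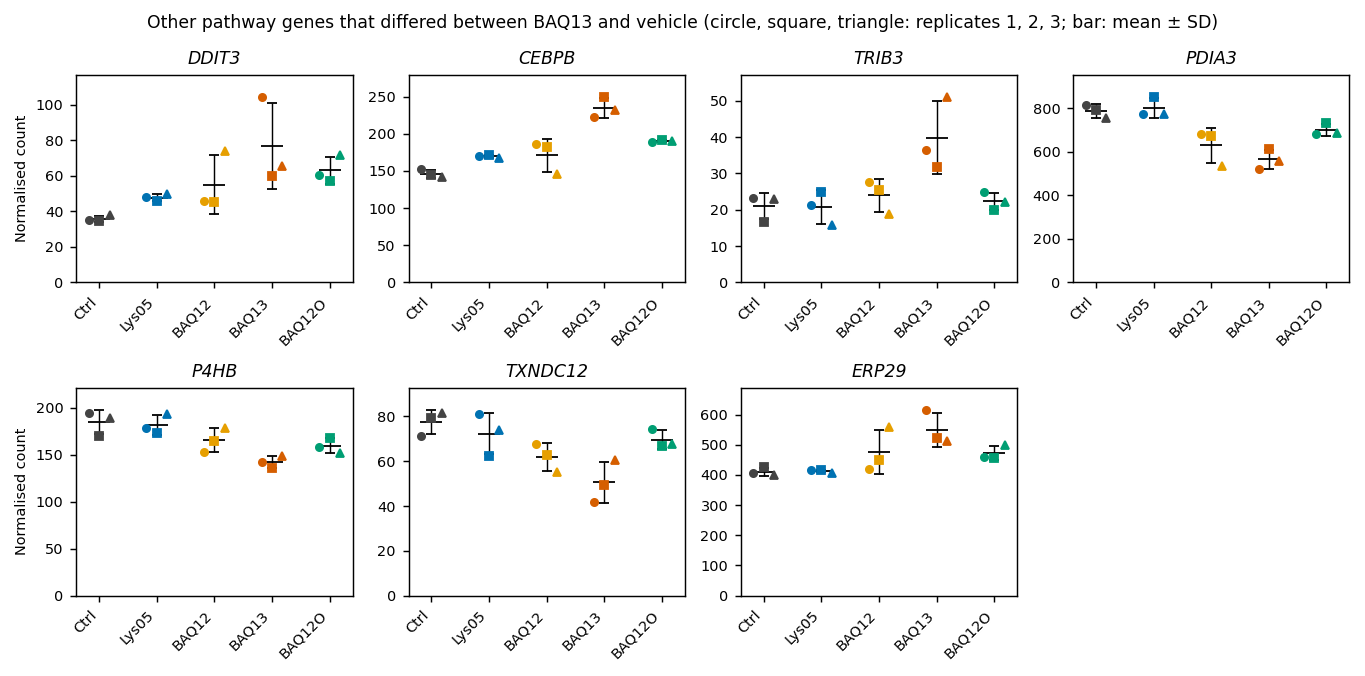
Normalised count (y axis, from 0) by group (x axis) of the 7 pathway genes called between BAQ13 and vehicle, with circles, squares and triangles for replicates 1, 2 and 3 and bars for the mean ± SD (n = 3). In each panel all BAQ13 libraries lie on one side of all vehicle libraries, above for DDIT3, CEBPB, TRIB3 and ERP29 and below for PDIA3, P4HB and TXNDC12. The genes were picked by their call between these same libraries, and 28.9% of all genes did not overlap in this comparison.

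Of these 7 calls, CEBPB was kept in all 28 alternatives, DDIT3 and PDIA3 in 27, ERP29 and TXNDC12 in 23, TRIB3 in 20 and P4HB in 19. Without BAQ13 replicate 1, ERP29, TXNDC12, P4HB and TRIB3 lost their calls (adjusted p up to 0.16, 0.15, 0.12 and 0.23 over all alternatives). Other single libraries also ended calls when left out. ERP29 and TRIB3 lost theirs without any one of the vehicle libraries, TXNDC12 without vehicle replicate 2 or 3 or BAQ13 replicate 2, P4HB without vehicle replicate 1 or 3 or BAQ13 replicate 2 or 3, and TRIB3 without BAQ13 replicate 3.

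HSPA5 served as the reference for likeness across the 15 libraries. The genes outside the 10 with the highest Pearson correlation to HSPA5 were STARD3 (0.88), SCARNA9 (0.85), PRKAA1 (0.85), PIGBOS1 (0.84) and ERP44 (0.84), and without BAQ12 replicate 3 they were PIGBOS1, RP11-7O14.1, KIRREL, STARD3 and UTP14A (0.86 to 0.81). Among the other 9 genes, the correlation ran from -0.71 for SDF2L1 to 0.70 for DNAJB9, and from -0.48 to 0.66 in the same genes without that library. These values are descriptions over libraries that share depth and treatment.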

How the data were processed

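The authors deposited a normalised signal for each gene, made by scaling its reads with one DESeq2-type factor per library. STAR, HTSeq, DESeq2 and GRCh38 (hg38) are named in the submitters' processing notes, without versions or roles, and the annotation release is not given in the sources used here. The kit is a 3′ tag kit by the labels but a stranded paired-end one by the study's methods, which affects whether reads cover whole transcripts or their ends only. Whole reads were recovered from the deposited signal (100% of values whole within 0.01 reads in each library). The 92 spike-in rows had 0 reads and were left out.

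Genes passing edgeR's filterByExpr (minimum count 10, minimum total 15) were tested with limma on log2(normalised count + 1) (eBayes, trended variance), fitting the 15 libraries together without covariates, in 10 comparisons. All adjusted p-values, unless another tool is named beside them, are from limma, by the Benjamini-Hochberg method over 10495 genes. Fold changes on this scale understate those of weakly expressed genes. Groups came from the sample labels. The members and the gene lists were chosen with earlier results of these data known. By rule, the genes named are the 10 genes and the 5 genes most correlated with HSPA5. From each list, the rule adds at most 3 increases and 3 decreases among genes with an adjusted p under 0.05 against vehicle. Genes outside this rule, called only by edgeR or without BAQ12 replicate 3, were named after seeing those fits. A floor of 3 reads (2.49 to 4.14 normalised counts) covers counting error only. The 28 alternatives are other scalings, tests (edgeR, DESeq2, a per-gene test of 2 groups), pseudocounts and filters, a replicate block, and fits without some libraries or with library weights. Gene positions are from GENCODE release 29 (GRCh38), and motifs were searched in RefSeq windows. The fits were tried on simulated data, in which all genes had the same dispersion and no library stood apart. They used limma 3.58.1, DESeq2 1.42.0 and edgeR 4.0.16 under R 4.3.3, and tables and plots were made with matplotlib 3.10.9 and pandas 2.3.3 under Python 3.11.15.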

Additional observations from a re-analysis of the deposited data

How the results depend on the processing

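None of the 100 fold changes of the 10 genes was called in opposite directions, and estimates changed sign in 70 of 2780 combinations with an alternative, 5 of them where the main value exceeded 0.2 on the log2 scale. At an adjusted p under 0.05, 1 of 10 genes was called against vehicle with Lys05 (HSP90B1) and with BAQ12O (HERPUD1) in fits of only the 6 libraries compared. These fits called 115 and 871 of all 10495 genes. Without both BAQ12 replicate 3 and BAQ13 replicate 1, a setting chosen after seeing the data, the counts were 1 with BAQ13 (PDIA4) and 1 with BAQ12O (HERPUD1) against vehicle, 3 for BAQ13 against Lys05 and 3 for BAQ12O against BAQ13. Against vehicle, 12% and 9.28% of all genes were called in this setting. For those compound pairs the share of all genes in this setting is not given here. The counts of 3 therefore have no background of their own beside them. The most that any alternative called in these pairs was 1468 and 908 of all genes, both with library weights. With library weights, also added later, the counts of the 10 genes were 1 for BAQ13 against vehicle, 2 for BAQ12 against Lys05, 3 for BAQ13 against Lys05, 1 for BAQ13 against BAQ12 and 2 for BAQ12O against BAQ13. In the same order, the weighted fit called 2333, 176, 1468, 1801 and 908 of all 10495 genes. By a fold of 2 and an unadjusted p of at most 0.05, DNAJB9 made 1 of 10 for BAQ12 against vehicle and against Lys05. It also made 1 of 10 for BAQ13 against BAQ12. These counts share the BAQ12 libraries, which had 2, 6 and 3 DNAJB9 reads. The share of all genes by this rule is not given here, so the counts have no background beside them. For BAQ13 against Lys05 the count was 0 by this rule, by the per-gene test of 2 groups and without a filter. Leaving out 1 library gave 0 to 2 for BAQ13 against Lys05 and 0 to 1 for BAQ12O against BAQ13. Over all genes, these fits called 154 to 814 and 72 to 387. The cause was not tested.

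Whether the replicate numbers pair the libraries could not be decided. Same-numbered deviations correlated at -0.13 to 0.11 with vehicle and at -0.49 to 0.20 over all comparisons, and never above 0.1 in all 3 pairs. The vehicle libraries differed by little more than counting error (chi-square per degree of freedom 1.055 to 1.342). Their deviations could therefore correlate weakly even if the libraries were paired. With the replicate block, 0 of 10 genes were called in every comparison (HSP90B1, BAQ13 against Lys05, adjusted p = 0.080), TRIB3 and P4HB were not called, and 512 of all genes were called for BAQ13 against vehicle.

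Over all genes, calls against vehicle numbered 25 (Lys05), 103 (BAQ12), 606 (BAQ13) and 155 (BAQ12O). The per-gene test of 2 groups gave 15, 5, 167 and 27, and the highest counts were 115 (6 libraries), 626 and 2333 (library weights) and 974 (without both libraries that stood apart). Leaving out 1 library gave 19 to 51, 56 to 137, 320 to 1441 and 75 to 524, highest without BAQ12 replicate 3. Between compounds, the main counts of 17 (BAQ12 against Lys05), 279 (BAQ13 against Lys05), 26 (BAQ12O against Lys05), 59 (BAQ13 against BAQ12), 24 (BAQ12O against BAQ12) and 146 (BAQ12O against BAQ13) ran from 0, 61, 6, 0, 1 and 1 to 176, 1468, 261, 1801, 467 and 908 over the alternatives. At 10 reads in every library DNAJB9 and ERN1 were not tested.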

Other observations

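Since the copies of ERSE and ERSE-II were found in few promoters, the other genes that carry one were counted after seeing the data. The 46 windows belong to 44 genes, of which 26 passed the filter, the 6 named above among them. None of the 26 was called against vehicle with any compound by limma, edgeR or DESeq2. Over all genes, limma called 0.238% (Lys05), 0.981% (BAQ12), 5.77% (BAQ13) and 1.48% (BAQ12O). In the same order, 3, 6, 3 and 1 of the 26 had an unadjusted limma p under 0.05. The shares of all genes were 4.98%, 11.8%, 19.4% and 12.8%. Without BAQ12 replicate 3, 1 was called with BAQ13 (SHCBP1), beside 13.7% of all genes. The median log2 differences of the 26 were 0.07 with Lys05, -0.04 with BAQ12, -0.04 with BAQ13 and -0.07 with BAQ12O. Single genes ranged from -0.87 to 0.50. Without the genes of the report, 20 remained, with medians of 0.05, -0.02, -0.04 and -0.07.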
